A study of Rattus norvegicus with 129 samples.

Results

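Pregnenolone 16α-carbonitrile (PCN) was read for its effect on the liver of female rats 6 h after 1 gavage dose of 100 mg/kg, by setting 5 PCN rats, numbered 5501 to 5505, against 5 vehicle rats, numbered 1501 to 1505. These 10 arrays were chosen by the rat numbers in the sample labels. They are 10 of 129 rat liver arrays in the series and 10 of 90 in the study of phenobarbital and PCN, and each held RNA of 1 rat. All rats of that study were Sprague-Dawley, housed singly on chow, and their age was not given in the sources used here. The groups set beside them were 5 females 6 h after phenobarbital at 100 mg/kg, 5 PCN males and 4 vehicle males at 6 h, and PCN and vehicle females, 5 each, at 24 h after 1 dose and at 24 h after the last of 5 daily doses. The vehicle, which every treated rat also received, was methylcellulose in water with Tween.

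PCN is a synthetic steroid that activates the pregnane X receptor (PXR, gene Nr1i2) of rodents. With its partner RXR, PXR binds pairs of a short half-site near genes for the oxidation, conjugation and transport of drugs and steroids, and cytochrome P450 enzymes of the Cyp3a family are its best known targets. The related receptor CAR (Nr1i3), which phenobarbital activates, shares many of these targets and is best known for Cyp2b. Neither receptor gene had a probe set annotated to it alone, and both were not analysed here.

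Levels are log2 of the quantile-normalised intensity plus 16, so that 4.00 is the floor, and a difference on this scale understates the change of genes near it. Of 8740 probe sets tested, 196 passed an adjusted p under 0.05 (limma, Benjamini-Hochberg), which is 2.24% of them. Of these, 132 were higher in the PCN rats than in the vehicle rats, 64 were lower, and 996 had an unadjusted p under 0.05. A change of at least 2-fold was seen in 58 of the risers and 7 of the fallers. Counted by gene, with each of 4736 genes read from its brightest probe set of a single symbol, 64 rose (1.35%) and 46 fell (0.971%). The median difference was 0.83 over the genes that rose, -0.56 over those that fell and -0.0032 over all genes. The groups did not overlap for 67 of these 110 genes, against 154 of all genes (3.25%). Mean deposited intensity was 249 to 326 on the PCN arrays and 200.2 to 311.4 on the vehicle arrays, and 22.07% to 24.66% and 22.64% to 24.21% of values lay at or under 0. The number of arrays limits the precision of every value.

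Genes of the Cyp3a and Cyp2b families were among those that rose most. Cyp3a23-3a1 (probe set X64401cds_s_at), the main PCN-inducible CYP3A enzyme of rat liver, had levels of 12.44, 12.55, 12.47, 12.50 and 12.33 in PCN rats 5501 to 5505, against 9.90, 10.28, 11.13, 11.17 and 10.09 in vehicle rats 1501 to 1505. All PCN rats lay above all vehicle rats, and they lay closer together (SD 0.08, against 0.59 in vehicle rats, n = 5 each). The difference was 1.94 ± 0.17 (SE; adjusted p = 1.8e-14), or 3.84-fold, and the 3 other probe sets of the gene rose by 1.71 to 2.20. Cyp3a18, a further CYP3A enzyme, had 9.49, 9.51, 7.69, 8.36 and 8.61 in PCN rats, against 6.51, 6.76, 7.78, 6.55 and 7.04 in vehicle rats. PCN rat 5503 lay below vehicle rat 1503, and the difference was 1.80 (SE 0.29, adjusted p = 6.9e-06). Cyp3a2 lay near the floor, with 5.03, 5.72, 4.60, 5.13 and 4.27 in PCN rats, against 4.00, 4.06, 4.61, 4.00 and 4.00 in vehicle rats, where 3 rats were at the floor. Its difference of 0.81 did not pass (adjusted p = 0.27), though with a pseudocount of 1 it was 3.00 and passed (adjusted p = 0.009). Cyp3a9 averaged 9.14 ± 0.61 in PCN rats and 8.30 ± 1.09 in vehicle rats (SD, n = 5 each), with an adjusted p of 0.57.

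The 300-base promoter windows of 3 of these genes are shown because the half-site AGTTCA, read on either strand, stands in pairs in them. The windows run from 250 bases before the start to 50 after it on the gene's strand, with RefSeq coordinates and sequence of GRCr8. They are those of Cyp3a23-3a1 at chr12:14398754-14399053 (minus strand), Cyp3a2 at chr12:14343808-14344107 (minus strand) and Cyp3a18 at chr12:13994062-13994361 (plus strand), and capitals mark the half-site.
Cyp3a23-3a1: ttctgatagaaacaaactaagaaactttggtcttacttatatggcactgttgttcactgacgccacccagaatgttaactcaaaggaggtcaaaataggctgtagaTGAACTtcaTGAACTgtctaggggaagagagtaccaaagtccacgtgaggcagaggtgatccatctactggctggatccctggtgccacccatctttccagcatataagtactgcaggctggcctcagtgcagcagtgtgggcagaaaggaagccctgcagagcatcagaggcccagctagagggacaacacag
Cyp3a2: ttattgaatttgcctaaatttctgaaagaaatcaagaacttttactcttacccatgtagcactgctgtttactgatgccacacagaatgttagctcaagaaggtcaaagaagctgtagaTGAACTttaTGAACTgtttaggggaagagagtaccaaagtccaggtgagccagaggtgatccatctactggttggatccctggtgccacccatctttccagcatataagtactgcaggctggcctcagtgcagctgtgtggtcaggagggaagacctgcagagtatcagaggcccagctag
Cyp3a18: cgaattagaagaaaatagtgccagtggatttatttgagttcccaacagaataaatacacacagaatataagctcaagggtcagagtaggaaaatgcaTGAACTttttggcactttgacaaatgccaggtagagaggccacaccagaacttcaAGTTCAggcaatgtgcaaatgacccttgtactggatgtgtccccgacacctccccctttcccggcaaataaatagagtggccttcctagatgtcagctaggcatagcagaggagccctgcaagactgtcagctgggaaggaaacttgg

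In Cyp3a23-3a1 the half-sites began 144 and 135 bases before the start, as a direct repeat with 3 bases between. The same repeat stood at 131 and 122 bases in Cyp3a2, the neighbouring and closely related gene. Among 33469 promoter windows, these 2 (0.00598%) were the ones with this repeat, while 14.5% held at least 1 half-site. In Cyp3a18 the copies faced opposite ways with 49 bases between them. Of genes that rose, 13 of 54 with a window held a half-site, as did 5 of 36 that fell and 425 of 3879 array genes. Direct repeats with 4 bases between were found in 4 windows (0.012%) and everted repeats with 6 between in 0. A match describes the letters in these windows and is not a site of binding.

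**Figure D1:**
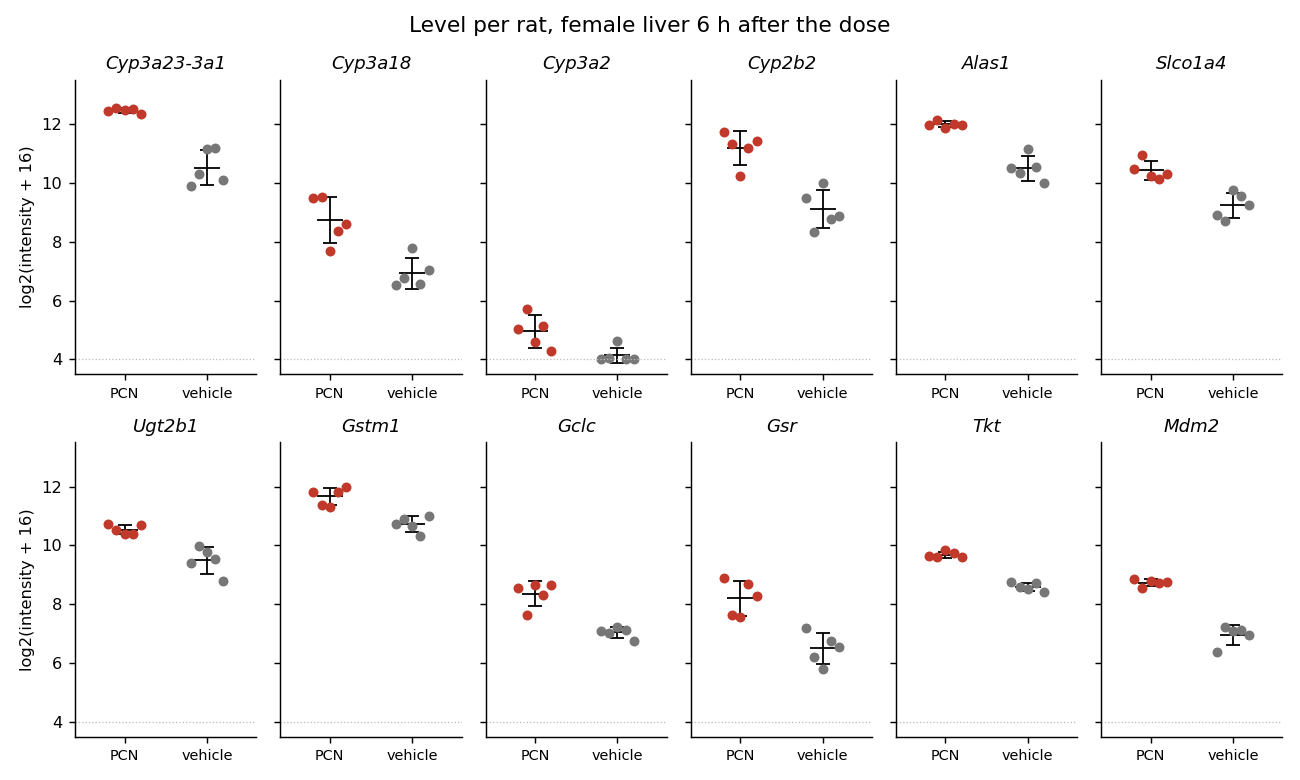
Levels (log2 of normalised intensity + 16) of 12 genes of drug metabolism, transport, redox balance and p53 control in the liver of PCN and vehicle females at 6 h. Points are rats, bars are mean ± SD of 5 rats, and the dotted line is the floor at 4. Cyp3a23-3a1 lies between 12.33 and 12.55 in PCN rats, above all vehicle rats, while Cyp3a2 stays near the floor in both groups.

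Cyp2b2, the classic phenobarbital-inducible enzyme, had 11.73, 11.32, 10.22, 11.19 and 11.42 in PCN rats, against 9.49, 8.33, 9.99, 8.79 and 8.89 in vehicle rats. The groups did not overlap, with PCN rat 5503 the lowest of its group, and the difference was 2.08 ± 0.29 (SE; adjusted p = 6.4e-07), or 4.22-fold. Of 15 phase 1 genes under PXR or CAR, 4 rose and 0 fell, where 1.35% and 0.971% of all genes did. The list median was 0.55, against -0.0032 over all genes. The fourth riser was Ephx1, the microsomal epoxide hydrolase, at 0.58 (adjusted p = 0.015). Por, which passes electrons to the P450 enzymes, averaged 10.98 ± 0.27 in PCN rats and 10.36 ± 0.33 in vehicle rats (SD, n = 5 each) and did not pass (adjusted p = 0.26).

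Some of the largest rises came from probe sets that no single gene could be read from. X62086mRNA_s_at, annotated to 2 Cyp3a genes at once, had 12.10, 12.05, 12.17, 11.64 and 12.29 in PCN rats, against 6.34, 7.22, 9.86, 9.21 and 7.80 in vehicle rats. The groups were far apart, and the difference was 3.97 (adjusted p = 1.7e-17). The unannotated probe set rc_AI639276_at had 7.53, 7.94, 8.27, 7.54 and 8.60 in PCN rats and was at the floor in all 5 vehicle rats, so that no fold is given. L37333_s_at, annotated to Psme3, Aoc3 and G6pc1 at once, rose by 3.62 (adjusted p = 0.0062), although PCN rat 5503 (7.08) lay below vehicle rat 1503 (7.28). Vehicle rats 1504 and 1505 were at the floor, which limits this size, and phenobarbital minus vehicle was 5.49 (adjusted p = 4.6e-06). The effect of PCN on this set was lower at 24 h by -5.72 (adjusted p = 0.011), where PCN minus vehicle was -2.10 (adjusted p = 0.18). Vehicle rats averaged 5.04 at 6 h and 9.10 at 24 h, and PCN rats 8.66 and 7.01. In all, 16 of the 196 probe sets carried several symbols and 24 none.

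Haem synthesis, uptake and conjugation each had members that rose. Alas1, the first and rate-limiting enzyme of haem synthesis, had 11.97, 12.13, 11.85, 12.00 and 11.95 in PCN rats, against 10.52, 10.32, 11.15, 10.52 and 9.99 in vehicle rats. All PCN rats were above all vehicle rats, by 1.48 ± 0.25 (SE; adjusted p = 3.9e-05), or 2.79-fold. Of 8 genes of haem synthesis and breakdown it alone passed (list median -0.047). Slco1a4, an uptake carrier for organic anions and cardiac glycosides, had 10.47, 10.94, 10.23, 10.14 and 10.31 in PCN rats, against 8.90, 8.72, 9.74, 9.56 and 9.24 in vehicle rats. Again the groups were separate, and Slco1a4 rose by 1.18 (adjusted p = 9.8e-05), as 1 of 13 hepatic transporters (median 0.25). The efflux pump Abcc3 averaged 5.86 ± 0.53 in PCN rats and 5.55 ± 0.12 in vehicle rats (SD, n = 5 each) and did not pass (adjusted p = 0.84).

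Of 20 conjugation genes, 4 rose and 0 fell, with a median of 0.031, where 1.35% and 0.971% of all genes did. This count leaves out probe sets of several symbols, and those given here were named after their values were seen. Sets shared by Ugt1a genes that passed rose by 0.60 (adjusted p = 1.6e-07) to 2.31 (6.9e-06). A set shared by Gsta5 and Gsta2 rose by 0.96 (adjusted p = 0.00033). Ugt2b1, a glucuronosyltransferase, had 10.74, 10.52, 10.38, 10.38 and 10.68 in PCN rats, against 9.40, 9.98, 9.78, 9.54 and 8.79 in vehicle rats. Its groups did not overlap, and it rose by 1.04 ± 0.20 (SE; adjusted p = 0.00044). Gstm1 and Gstm2, glutathione transferases of the mu class, rose by 0.94 (adjusted p = 1.6e-06) and 0.97 (adjusted p = 2.5e-05). The other 3 probe sets of these 2 genes also rose, by 0.64 to 1.24. Sult1b1, a sulfotransferase, rose by 0.92 (adjusted p = 0.0079). Gsta3, of the alpha class, averaged 9.06 ± 0.39 in PCN rats and 8.30 ± 0.86 in vehicle rats (SD, n = 5 each) and did not pass (adjusted p = 0.35), although a dimmer probe set of it did, at 0.92 (adjusted p = 0.016). Sult2a1, a bile acid and steroid sulfotransferase, was among the brightest genes, at 12.88 ± 0.03 in PCN rats and 12.72 ± 0.15 in vehicle rats (SD, n = 5 each; adjusted p = 0.90), and its sign turned under median scaling (-0.044).

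Genes that answer to NRF2, a transcription factor of the response to oxidative and electrophilic stress, formed the next group. Of 17 measured, 5 rose and 0 fell, with a median of 0.41, where 1.35% and 0.971% of all genes did. Gclc, the catalytic subunit of the first enzyme of glutathione synthesis, had 8.54, 7.65, 8.65, 8.33 and 8.66 in PCN rats, against 7.08, 7.03, 7.22, 7.14 and 6.76 in vehicle rats. Its groups did not overlap, and it rose by 1.32 ± 0.25 (SE; adjusted p = 0.00033). Gsr, which regenerates glutathione, had 8.88, 7.64, 7.58, 8.70 and 8.27 in PCN rats, against 7.20, 6.20, 5.82, 6.77 and 6.56 in vehicle rats. It rose by 1.70 (adjusted p = 0.00046), or 3.26-fold, with all PCN rats above all vehicle rats. Tkt, an enzyme of the pentose phosphate pathway, had 9.65, 9.60, 9.84, 9.74 and 9.59 in PCN rats, against 8.75, 8.58, 8.51, 8.71 and 8.41 in vehicle rats. It also separated the groups, at 1.09 (adjusted p = 6.8e-06). The other members that passed were Ephx1, given above, and Me1, the malic enzyme that makes NADPH, at 0.87 (adjusted p = 0.025). None of the 4 other probe sets of Me1 passed, and the call of Me1 was lost without vehicle rats 1501 (adjusted p = 0.17) or 1505 (0.11), and without PCN rats 5501 (0.055) or 5503 (0.076).

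Mdm2, the ubiquitin ligase that restrains p53, had 8.86, 8.56, 8.78, 8.72 and 8.77 in PCN rats, against 6.37, 7.22, 7.11, 7.12 and 6.96 in vehicle rats. All PCN rats lay above all vehicle rats, and the difference was 1.78 ± 0.21 (SE; adjusted p = 1.2e-09), or 3.44-fold. It was 1 of 5 measured p53 targets, the list median being 0.00, and of its 3 dimmer probe sets 1 passed (1.24) while another was at the floor. Ccnd1, a cyclin that drives entry into the cell cycle, rose by 0.86 (adjusted p = 0.035), as 1 of 26 cell cycle genes (median 0.026). Of the 4 other probe sets of Ccnd1, 2 passed. Its call was lost without PCN rat 5501, the highest (adjusted p = 0.19), and without vehicle rats 1502 (0.18), 1503 (0.14) or 1504 (0.055).

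Proteasome subunits moved by small amounts, with 4 of 24 up, 0 down and a median of 0.31, where 1.35% of all genes rose and 0.971% fell. Psma1, of the core, had 9.42, 9.41, 9.19, 9.28 and 9.12 in PCN rats, against 8.44, 8.80, 8.79, 8.82 and 8.48 in vehicle rats, and rose by 0.62 (adjusted p = 0.0017). Its other, dimmer probe set was at 0.14 (adjusted p = 0.99), and with both averaged Psma1 was at 0.38 and did not pass (adjusted p = 0.12). Its groups did not overlap on the brighter set, as was also the case for Psmc2, an ATPase of the cap, at 0.54 (adjusted p = 0.0026). Psma5 rose by 0.44 (adjusted p = 0.027) and Psmd4 by 0.40 (adjusted p = 0.025). The call of Psma5 was lost with any of PCN rats 5501, 5502 and 5504 or vehicle rats 1502, 1503 and 1505 left out (adjusted p = 0.056 to 0.099).

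Among other genes, Rhob, a small GTPase that cells induce early, had 8.52, 7.88, 8.37, 8.32 and 8.29 in PCN rats, against 6.93, 6.97, 6.67, 6.93 and 6.25 in vehicle rats. It rose by 1.53 ± 0.28 (SE; adjusted p = 0.0002), with no overlap, as 1 of 27 immediate early genes (median 0.00). Pakap had 7.03, 6.92, 6.34, 6.76 and 6.47 in PCN rats, against 4.82, 5.90, 4.53, 4.69 and 4.59 in vehicle rats. It rose by 1.80 (adjusted p = 9.2e-05), again with no overlap. C8h11orf54 rose by 1.42 (adjusted p = 6.6e-05) with overlapping groups. Inf2, a formin that shapes actin filaments, had 6.10, 7.44, 4.00, 6.22 and 7.05 in PCN rats and was at the floor in 4 of 5 vehicle rats (adjusted p = 9.4e-06). Oat, which breaks down ornithine, rose by 0.85 (adjusted p = 0.028), and Eif4e, the cap-binding factor of translation, by 0.43 (adjusted p = 0.011). The call of Oat was lost without vehicle rats 1501 (adjusted p = 0.11) or 1505 (0.19) or PCN rats 5502 (0.084) or 5504 (0.058), and that of Eif4e without PCN rat 5505 (0.075).

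**Figure D2:**
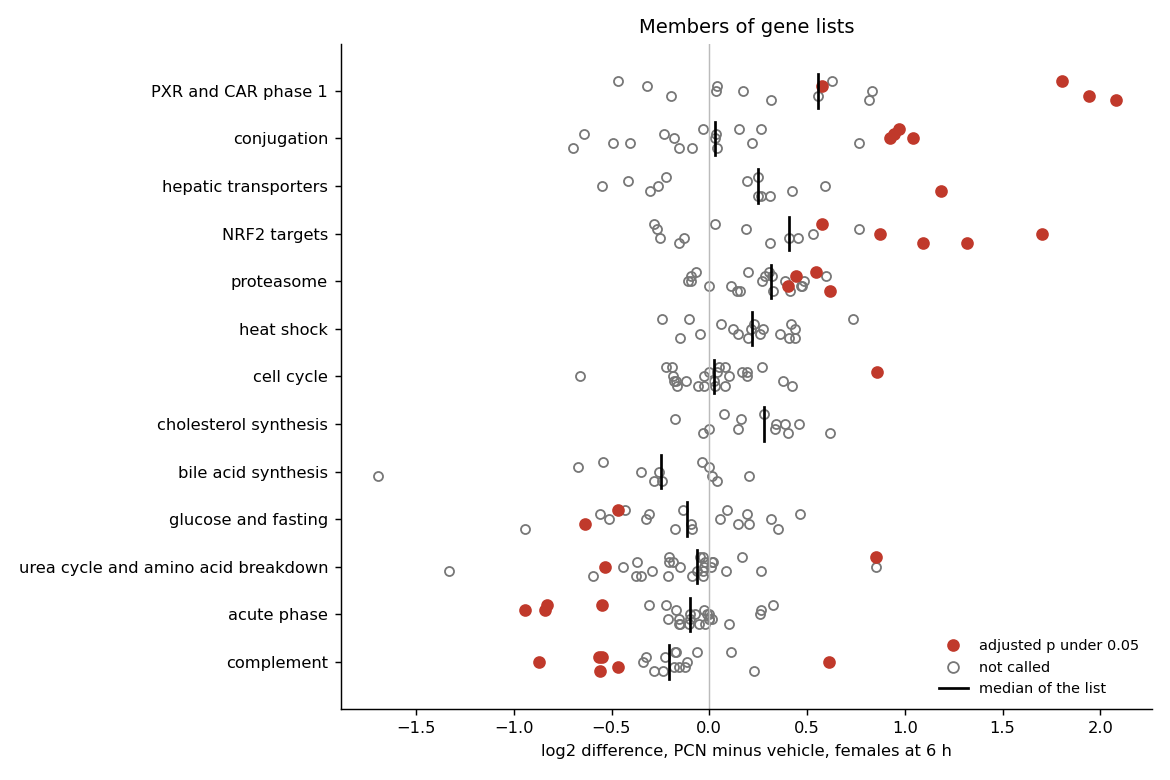
Difference in level (log2, PCN minus vehicle females at 6 h) for the measured members of 13 gene lists. Each point is a gene, red points passed an adjusted p under 0.05, and the black line is the list median. Members that passed lie above 0 for phase 1, conjugation, NRF2 and proteasome genes, and 4 acute phase genes lie below 0.

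Several of the genes that fell encode defence proteins made by the liver. C1r, a protease that starts the classical complement pathway, had 10.53, 10.90, 10.56, 10.46 and 10.53 in PCN rats, against 11.31, 11.65, 11.30, 11.39 and 11.68 in vehicle rats. Every PCN rat lay below every vehicle rat, and C1r fell by 0.87 on the log2 scale (SE 0.13, adjusted p = 1.6e-06). Serpina3n, a protease inhibitor of plasma, had 10.76, 10.99, 10.83, 10.38 and 11.05 in PCN rats, against 11.63, 11.62, 11.56, 11.51 and 11.89 in vehicle rats. It fell by 0.84 on the log2 scale (adjusted p = 3.6e-06), with no overlap. Il6r, the receptor through which interleukin-6 drives the acute phase response, had 8.23, 8.25, 8.33, 8.16 and 8.43 in PCN rats, against 9.33, 9.01, 9.19, 8.95 and 9.06 in vehicle rats. The groups were separate, and Il6r fell by 0.83 on the log2 scale (adjusted p = 0.0017). Lbp, which binds bacterial lipopolysaccharide, had 6.81, 6.43, 6.10, 6.27 and 6.71 in PCN rats, against 6.85, 8.07, 7.35, 7.12 and 7.67 in vehicle rats. Its call, at -0.94 (adjusted p = 0.020), was lost without vehicle rats 1502 (0.13) or 1505 (0.070) or PCN rats 5503 (0.072) or 5504 (0.058).

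Of 27 acute phase genes, 4 fell and 0 rose, with a median of -0.10, where 0.971% and 1.35% of all genes did. The fourth was C9, a complement protein that forms pores, at -0.55 (adjusted p = 0.017). Of 20 complement genes, a list added after the values were seen, 5 fell and 1 rose, with a median of -0.20. Beside C1r and C9 these were C1s, the partner protease of C1r, at -0.57 (adjusted p = 0.00073), and the chains of the inhibitor C4b-binding protein, C4bpa at -0.56 (0.013) and C4bpb at -0.47 (0.011). The member that rose was Mbl2, a lectin that recognises microbial sugars, at 0.61 (adjusted p = 0.00072). Of 19 coagulation genes, also added later, 0 passed by limma, and 3 were lower at an unadjusted p under 0.05. At an unadjusted p under 0.05, 9 acute phase genes were lower and 2 higher in PCN females, where 7.07% and 5.05% of all genes were. In males at 6 h, 0 of the 27 passed by limma and 2 were lower at an unadjusted p under 0.05, against 0.676% and 5.32% of all genes, which is near the background.

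In bulk liver, fewer cells of a type and less RNA per cell cannot be told apart. The summed normalised intensity of 11 hepatocyte markers was 61960 to 63850 in PCN rats and 62140 to 65470 in vehicle rats. The sum of 12 macrophage markers was 2898 to 3929 in PCN rats and 3699 to 4895 in vehicle rats, with Csf1r at or under 0 on all 10 arrays. The sum of 18 stellate and fibroblast markers was 5688 to 7595 in PCN rats and 7410 to 8735 in vehicle rats, with Des at or under 0 throughout. Both ranges lay lower in the PCN rats but overlapped, and by limma 0 markers of any list passed on their brightest probe sets (with a gene's sets averaged, 1 hepatocyte and 1 endothelial marker fell), with 1 hepatocyte and 1 macrophage marker lower at an unadjusted p under 0.05. The sum of 10 bile duct markers was 1669 to 3106 in PCN rats and 2153 to 3018 in vehicle rats (Ggt1 at or under 0), and that of 4 blood cell markers was 3513 to 7784 in PCN rats and 4966 to 9814 in vehicle rats. For 9 endothelial markers the sums were 503.9 to 561.6 in PCN rats and 417.4 to 579.6 in vehicle rats, and for 16 lymphocyte and neutrophil markers 577.9 to 760.0 in PCN rats and 547.2 to 783.2 in vehicle rats, with Cd2, Cd3d and Prf1 at or under 0. The part of these cells in the lower levels of defence genes was not tested.

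**Figure D3:**
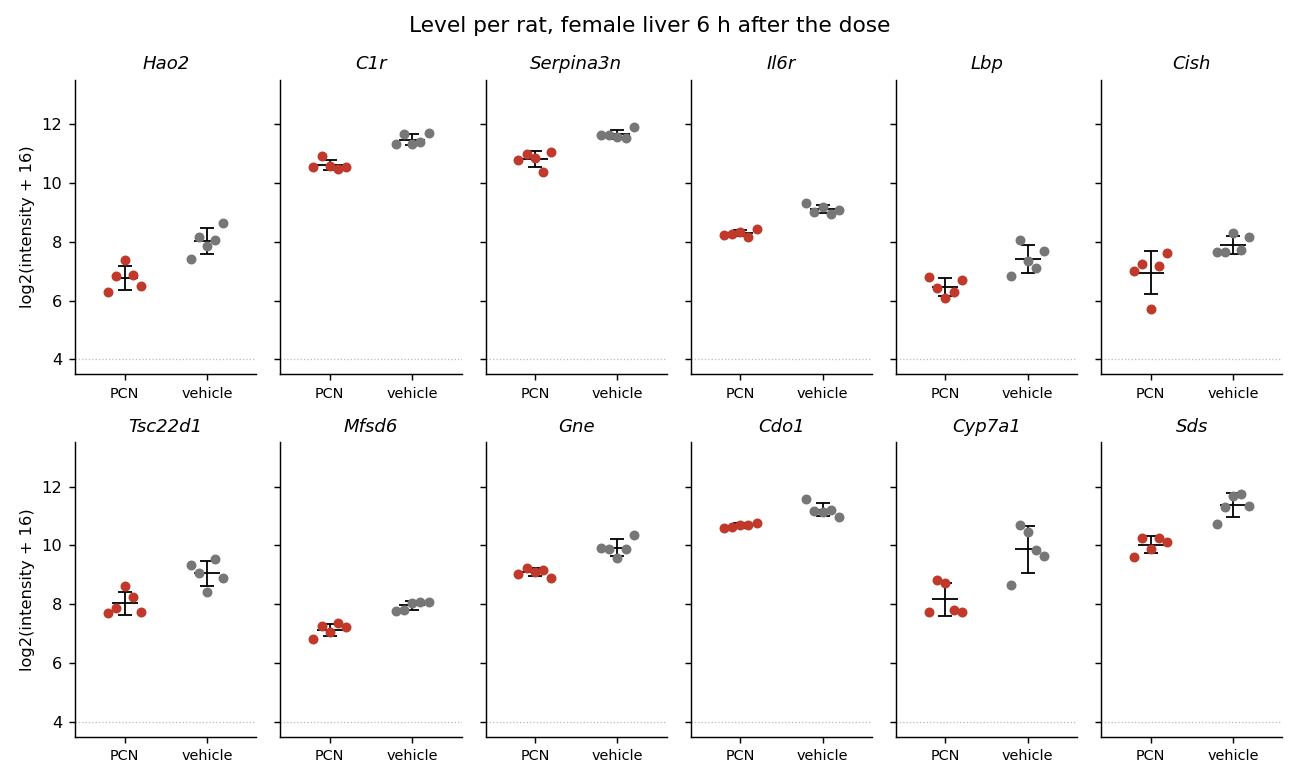
Levels (log2 of normalised intensity + 16) of 12 genes that were lower in PCN than in vehicle females at 6 h. Points are rats and bars are mean ± SD of 5 rats. C1r, Serpina3n and Il6r separate the groups, and so does Sds, which did not pass the test; Cyp7a1 overlaps.

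Hao2, a peroxisomal hydroxyacid oxidase, showed the largest fall among the genes that passed on their brightest probe set. A dimmer probe set of Nr1d1, a clock repressor, named after its values were seen, was lower, at -1.64 (adjusted p = 0.012; brighter set -0.47, adjusted p = 0.59), as was the unannotated rc_AA799964_at, at -1.51 (0.0025). Hao2 had 6.28, 6.84, 7.37, 6.86 and 6.51 in PCN rats, against 7.43, 8.15, 7.84, 8.04 and 8.64 in vehicle rats. The groups did not overlap, and Hao2 fell by 1.25 on the log2 scale (SE 0.22, adjusted p = 6.1e-05). It was the 1 of 10 genes on the list of female-biased genes to pass, although vehicle males had a higher level here than vehicle females, 11.23 and 8.02 on average. Of 12 male-biased genes 1 rose, Cyp3a18. Tsc22d1, a transcription regulator that glucocorticoids and TGFβ induce, had 7.72, 7.88, 8.63, 8.26 and 7.75 in PCN rats, against 9.34, 9.05, 8.43, 9.55 and 8.91 in vehicle rats. The groups overlapped at PCN rat 5503, and its call, at -1.01 (adjusted p = 0.0092), was lost without vehicle rat 1504 (0.053). Cish, a feedback inhibitor of STAT5 signalling downstream of growth hormone, fell by 0.95 on the log2 scale (adjusted p = 0.035), as 1 of 17 growth hormone and IGF genes. The call of Cish was lost without PCN rats 5503 (adjusted p = 0.26) or 5501 (0.063) or vehicle rats 1503 (0.11) or 1505 (0.11).

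A few genes of intermediary metabolism were among those that fell. Cdo1, which oxidises cysteine, had 10.60, 10.62, 10.70, 10.71 and 10.77 in PCN rats, against 11.56, 11.17, 11.13, 11.22 and 10.97 in vehicle rats. It fell by 0.53 on the log2 scale (adjusted p = 0.00034; 0.068 in a fit of these 10 arrays alone), with no overlap, and with the rise of Oat it made 1 up and 1 down of 29 urea cycle and amino acid genes. Of 20 glucose and fasting genes, 2 fell and 0 rose. These were Pc, pyruvate carboxylase, at -0.47 (adjusted p = 0.016), and Pdk2, a kinase that switches off pyruvate dehydrogenase, at -0.64 (adjusted p = 0.038). The call of Pc was lost without PCN rat 5505 (adjusted p = 0.078) or vehicle rat 1505 (0.092), and that of Pdk2 without any of PCN rats 5501, 5503 and 5504 or vehicle rats 1502, 1503 and 1504 (0.064 to 0.18). Gne, an enzyme of sialic acid synthesis, fell by 0.83 on the log2 scale (adjusted p = 0.0079; 0.053 without vehicle rat 1505), and Mfsd6, a membrane protein of the transporter superfamily, by 0.82 (adjusted p = 5e-05). Rxrg, an RXR isotype, at -0.57 (adjusted p = 0.041) was the 1 of 30 nuclear receptors to pass, and Rab4b, a trafficking GTPase near the floor, was at -1.19 (adjusted p = 0.041). No other probe set of either gene passed, and the call of Rab4b was lost without any vehicle rat or PCN rats 5501, 5502 or 5505 (adjusted p = 0.065 to 0.22), and that of Rxrg without PCN rats 5501, 5504 or 5505 or vehicle rats 1501, 1502, 1504 or 1505 (0.065 to 0.15).

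Genes of bile acid synthesis and of amino acid breakdown in fasting included some that separated the groups or nearly so and did not pass. Cyp7a1, the rate-limiting enzyme of bile acid synthesis, had 7.75, 8.82, 8.71, 7.80 and 7.76 in PCN rats, against 8.65, 10.71, 10.46, 9.85 and 9.65 in vehicle rats. The groups overlapped at vehicle rat 1501, and the difference of -1.70 (95% interval -3.04 to -0.35) did not pass over all probe sets (adjusted p = 0.24). With a pseudocount of 64 it was -1.55 and passed (adjusted p = 0.037). Of 12 bile acid genes 0 passed by limma, with a median of -0.25, and at an unadjusted p under 0.05 there were 1 higher and 3 lower. Sds, serine dehydratase, had 9.62, 10.26, 9.89, 10.26 and 10.13 in PCN rats, against 10.74, 11.32, 11.67, 11.76 and 11.33 in vehicle rats. All PCN rats lay below all vehicle rats, yet the difference of -1.33 (95% interval -3.26 to 0.60) did not pass (adjusted p = 0.76), and in a fit of these 10 arrays alone it did (adjusted p = 0.032). Tat, tyrosine aminotransferase, was at 10.75 ± 0.11 in PCN rats and 10.78 ± 0.29 in vehicle rats (SD, n = 5 each). By limma, 0 genes passed among 6 AHR targets, 20 PPARα targets, 13 cholesterol synthesis genes (median 0.28), 18 heat shock genes (median 0.22), 21 glucocorticoid-responsive genes and 9 clock genes. At an unadjusted p under 0.05 there were, in this order, 0, 4, 1, 2, 1 and 1, beside 12.1% of all genes.

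PCN was next set directly against phenobarbital at the same dose, time and sex. Of 8740 probe sets, 607 passed (6.95%), 352 higher and 255 lower in PCN rats than in phenobarbital rats. By gene, 342 passed, and 189 of them were higher in PCN rats. Cyp2b2 had 11.17 ± 0.57 in PCN rats and 12.43 ± 0.28 in phenobarbital rats (SD, n = 5 each), and vehicle rats had 9.10 ± 0.65. PCN minus phenobarbital was -1.25 (SE 0.29, adjusted p = 0.0022). Cyp3a23-3a1 differed by 0.49 (adjusted p = 0.071), although its 5 PCN rats, from 12.33 up, all lay above the 5 phenobarbital rats, which were at 11.83 to 12.03. Cyp3a18 was higher by 1.45 (adjusted p = 0.0002), Alas1 by 1.16 (0.00088), Mdm2 by 1.53 (8e-08), Slco1a4 by 0.76 (0.014) and Gclc by 1.91 (5.7e-08) in PCN rats. Phenobarbital against vehicle had 228 probe sets past the threshold (2.61%), and since both comparisons use these vehicle rats, the values are only set side by side. They were 3.33 for Cyp2b2 (2.08 for PCN), 1.46 for Cyp3a23-3a1 (1.94), 0.25 for Mdm2 (1.78) and -0.59 for Gclc (1.32).

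Heat shock and fasting genes were among the largest differences between the compounds. Hsph1, a large chaperone, had 9.42, 9.23, 9.12, 9.30 and 9.07 in PCN rats and 5.36, 6.11, 4.84, 5.10 and 8.06 in phenobarbital rats, against 8.73, 8.76, 8.19, 8.33 and 8.47 in vehicle rats. It was higher by 3.33 ± 0.41 in PCN than in phenobarbital rats (SE; adjusted p = 6.2e-09), while PCN minus vehicle was 0.73 (adjusted p = 0.53; 0.036 in a fit of these 10 arrays alone). Fkbp4, a co-chaperone of steroid receptors, had 8.51, 8.28, 9.05, 8.81 and 8.95 in PCN rats and 5.62, 6.27, 5.60, 5.83 and 7.69 in phenobarbital rats, against 8.51, 8.29, 8.04, 8.39 and 8.33 in vehicle rats. It was higher by 2.52 (adjusted p = 4.6e-11) in PCN than in phenobarbital rats, and by 0.41 (adjusted p = 0.66) than in vehicle rats. Of 18 heat shock genes, 11 were higher and 0 lower in PCN than in phenobarbital rats. Of all 4736 genes, 342 passed in this comparison, 189 of them higher in PCN rats. In phenobarbital minus vehicle, 9 of the 18 were lower and 0 higher, where 69 and 58 of all genes were. In PCN minus vehicle, 0 of the 18 passed. For Hsph1 and Fkbp4, phenobarbital rat 4505 lay nearer the vehicle rats than the other 4 did.

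The promoter windows of Hsph1 at chr12:10427118-10427417 (plus strand) and Fkbp4 at chr4:163397869-163398168 (minus strand), from RefSeq on GRCr8, are shown because these 2 chaperone genes moved together. Capitals mark the heat shock unit GAANNTTC, which each holds once and which 8.59% of all windows hold. In PCN minus vehicle, 2 of 54 risers with a window held it, as did 6 of 36 fallers and 237 of 3879 array genes. Neither of these 2 genes passed there, and windows of other heat shock genes are not given. Here too a match is not a site of binding.
Hsph1: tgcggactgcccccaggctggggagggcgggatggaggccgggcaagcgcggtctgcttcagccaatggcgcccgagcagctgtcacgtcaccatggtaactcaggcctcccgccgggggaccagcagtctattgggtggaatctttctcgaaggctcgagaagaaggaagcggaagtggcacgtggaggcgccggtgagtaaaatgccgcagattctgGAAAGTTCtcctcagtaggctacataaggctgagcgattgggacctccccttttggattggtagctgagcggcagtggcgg
Fkbp4: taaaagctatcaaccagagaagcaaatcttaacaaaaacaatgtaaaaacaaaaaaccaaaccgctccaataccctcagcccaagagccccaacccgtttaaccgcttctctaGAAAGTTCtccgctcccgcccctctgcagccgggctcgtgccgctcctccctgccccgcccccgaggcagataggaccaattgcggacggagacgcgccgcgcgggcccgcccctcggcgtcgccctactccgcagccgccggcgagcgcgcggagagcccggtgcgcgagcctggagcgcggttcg

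Igfbp1, a secreted binding protein of insulin-like growth factors that fasting raises, was at the floor in all 5 PCN rats and had 11.38, 11.22, 11.05, 10.75 and 6.95 in phenobarbital rats, against 4.00, 4.00, 8.48, 4.00 and 4.23 in vehicle rats. Every phenobarbital rat lay above the floor, and no fold is given against a group at the floor (adjusted p = 2.9e-07). Pdk4, a kinase of the fasting response, had 4.00, 4.00, 5.83, 4.53 and 5.43 in PCN rats and 9.09, 8.24, 10.41, 9.84 and 5.64 in phenobarbital rats, against 4.00, 4.24, 5.98, 4.00 and 4.00 in vehicle rats. PCN minus phenobarbital was -3.88 (adjusted p = 1.1e-06), with phenobarbital rat 4505 inside the range of the PCN rats, and the call was lost in a fit of only these groups (adjusted p = 0.064). Of 20 PPARα targets, 8 were lower and 0 higher in PCN than in phenobarbital rats, and of 20 glucose and fasting genes 5 were lower. In phenobarbital minus vehicle, 6 of these PPARα targets and 3 of these fasting genes were higher, and 0 of either list lower. Pex11a, which divides peroxisomes, was at -1.90 (adjusted p = 1.2e-05; 0.10 in the fit of only these groups) in PCN minus phenobarbital, Zfp354a at -2.73 (0.00016) and Serpina7, the thyroxine carrier of plasma, at -1.90 (0.025). The call of Serpina7 was lost without PCN rat 5501 (0.11) or phenobarbital rats 4502 (0.076), 4503 (0.053) or 4504 (0.097). Tuba4a, a tubulin, was higher by 3.34 (adjusted p = 0.00071), Per2, a clock repressor, by 2.33 (5.2e-05; 0.092 with a pseudocount of 1). Inf2 was at the floor in all 5 phenobarbital rats, so that no fold is given (adjusted p = 5e-07; 0.10 in the fit of only these groups). Of 24 proteasome genes 11 were higher and 0 lower in PCN than in phenobarbital rats, and of 17 NRF2 targets 6 and 0. All these list counts stand beside 342 of all 4736 genes that passed in PCN minus phenobarbital, 189 of them higher. In phenobarbital minus vehicle, 0 proteasome genes and 0 NRF2 targets passed. With 58 higher and 69 lower of all 4736 genes there, this is near the background.

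**Figure D4:**
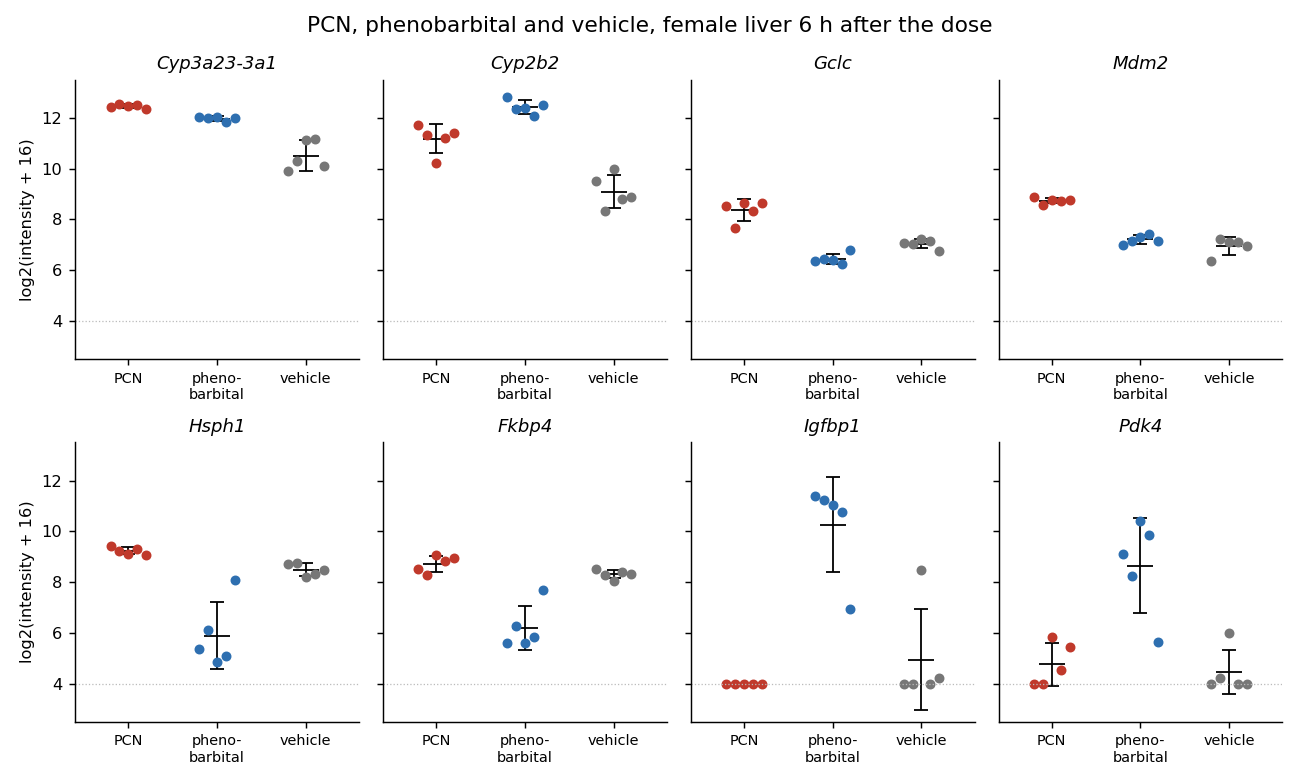
Levels (log2 of normalised intensity + 16) of 8 genes in PCN, phenobarbital and vehicle females at 6 h. Points are rats and bars are mean ± SD of 5 rats. Hsph1 and Fkbp4 are low and Igfbp1 and Pdk4 high in phenobarbital rats, with rat 4505 nearer the vehicle rats in all 4.

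Whether the effect at 6 h differed between the sexes was tested as the difference of the differences. It passed for 4 of 8740 probe sets (0.0458%), with 526 at an unadjusted p under 0.05, and by limma for 0 genes read from their brightest probe set, of which 123 were higher and 181 lower at an unadjusted p under 0.05. The clearest was the probe set shared by 2 Cyp3a genes, X62086mRNA_s_at, which lay at 12.12 to 12.57 in PCN males and 11.59 to 12.11 in vehicle males. Vehicle males thus stood near the level that females reached with PCN, and the effect was larger in females by 3.52 (95% interval 2.66 to 4.37, adjusted p = 5e-08). The 2 genes are Cyp3a23-3a1 and Cyp3a2. On its own probe set Cyp3a2 averaged 11.49 in PCN males and 11.55 in vehicle males, against 4.95 and 4.13 in females. Its sex difference was 0.87 (adjusted p = 0.87), and its part in the shared set was not tested. J03914cds_s_at, the dimmer probe set of Gstm2, was at 9.31 to 9.86 in PCN females and 7.79 to 8.57 in vehicle females, and at 9.76 to 10.54 in PCN males and 10.10 to 10.54 in vehicle males. The effect was larger in females by 1.28 (adjusted p = 0.035), and for the brighter probe set of Gstm2 by 0.87 (adjusted p = 0.22). The other 2 probe sets had no annotation, rc_AA799890_at at 1.22 (adjusted p = 0.0049) and U91561_g_at at -0.79 (adjusted p = 0.0094). In a fit of only these 19 arrays none of the 4 passed: the adjusted p was 0.20 for X62086mRNA_s_at (3.45), 0.17 for J03914cds_s_at, 0.25 for rc_AA799890_at and 0.088 for U91561_g_at. For Cyp3a23-3a1 the difference was 0.64 (95% interval 0.14 to 1.14, adjusted p = 0.66), and for C1r -0.78 (-1.15 to -0.41, adjusted p = 0.082).

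PCN males and their vehicle share no rat with the females, so calls were counted across them. Both sets of calls use the same spread per probe set from 1 fit, so they are not fully separate. In males at 6 h, 65 genes rose (1.37%) and 32 fell (0.676%). Of the 64 genes that rose in females, 20 rose in males, which is 20 of 64 and 20 of 65. Among these were Cyp2b2 at 2.82 (adjusted p = 7.6e-10), Alas1 at 1.91 (6.9e-07), Cyp3a23-3a1 at 1.30 (5.3e-07), Gclc at 1.25 (0.0033), Tkt at 1.21 (3.6e-06), Slco1a4 at 1.20 (0.00044) and Mdm2 at 1.10 (0.00099). Of the 46 genes that fell in females, 5 fell in males, which is 5 of 46 and 5 of 32. These were Atrn, Cyp2f4, Lgr4, Aqp9 and Cdo1, the first 4 named after their values were seen. C1r in males was at -0.09 (adjusted p = 0.99) and Serpina3n at -0.11 (0.94), but the sex difference itself passed for neither (0.082 and 0.16).

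**Figure D5:**
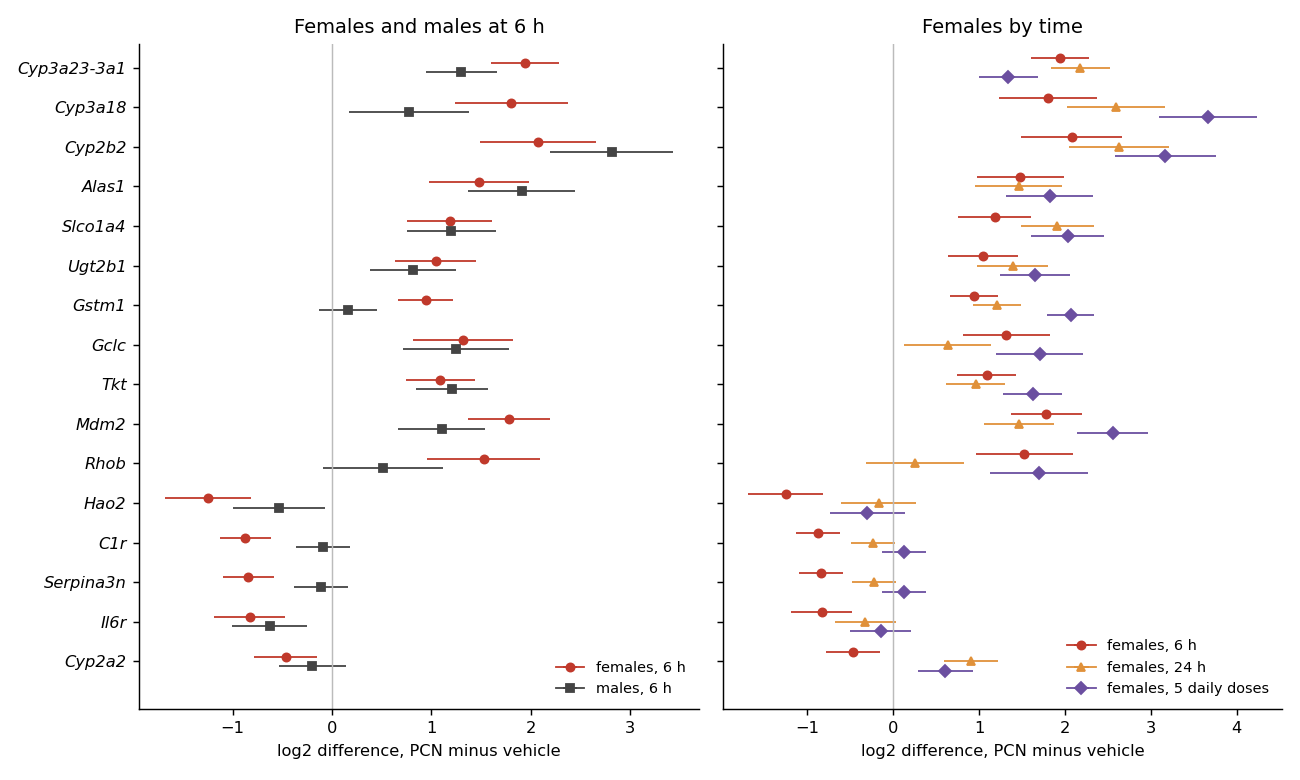
Difference in level (log2, PCN minus vehicle) of 16 genes with 95% intervals, for females and males at 6 h (left) and for females at 6 h, 24 h and after 5 daily doses (right). Cyp2b2, Alas1, Slco1a4 and Mdm2 lie above 0 throughout, and C1r and Serpina3n lie below 0 in females at 6 h, with intervals that meet 0 in males and at the later times.

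The change of the effect between 6 h and 24 h after 1 dose, each with its own vehicle rats, passed for 24 probe sets (0.275%), with 956 at an unadjusted p under 0.05. Of these, 11 were higher and 13 lower at 24 h, among them 8 and 6 genes. Cyp2a2, a steroid hydroxylase of rat liver, had 9.21, 9.72, 8.58, 9.35 and 9.03 in PCN rats, against 9.75, 9.40, 9.60, 9.69 and 9.77 in vehicle rats at 6 h, a difference of -0.47 (adjusted p = 0.13). At 24 h it was at 10.33 to 10.88 in PCN rats and 9.52 to 10.08 in vehicle rats, a rise of 0.91 (adjusted p = 6.5e-05). The change of the effect was 1.37 ± 0.23 (SE; adjusted p = 0.00049). The effect was also higher at 24 h for Nptn, an adhesion molecule, by 3.33 (adjusted p = 0.0016), for Stmn1, a microtubule regulator, by 1.53 (0.019) and for Hsd17b3, an enzyme of testosterone synthesis, by 1.15 (0.022). Nptn was at the floor in 2 of 5 PCN rats at 6 h, and its 2 probe sets differed in sign there, at -1.12 (adjusted p = 0.23) and 1.15 (0.47). The effect was lower at 24 h for Actg1, a cytoskeletal actin, by -1.18 (adjusted p = 0.035), for Rabggtb, which lipidates Rab proteins, by -0.98 (0.0011) and for Ddx21, a helicase of ribosome assembly, by -0.76 (0.042). Groups at the floor set the size of 3 others that passed, for which no size is given here. Inf2 was at the floor in all 10 rats of 24 h (adjusted p = 0.022), Max, the partner of Myc, in all 5 PCN rats of 24 h (0.049), and B3gat1, a glucuronyl transferase, in all 5 PCN rats of 6 h (0.022). Of these 10 genes, Nptn, Cyp2a2 and Rabggtb kept their call with any 1 array left out. The call of Stmn1 was lost without PCN rats 5506 or 5509 of 24 h, that of Inf2 without PCN rats 5502 or 5505 or vehicle rat 1509, and that of Hsd17b3 without PCN rat 5505 or vehicle rats 1505, 1506 or 1509. That of B3gat1 was lost without PCN rats 5507 or 5509 or vehicle rats 1501, 1504, 1509 or 1510, and those of Actg1, Ddx21 and Max with any of most arrays left out (adjusted p up to 0.12 over all of these).

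Genes called at 6 h were followed to the later times. At 24 h, 107 genes rose (2.26%) and 62 fell (1.31%), and after 5 daily doses 234 rose (4.94%) and 205 fell (4.33%). Of the 64 genes that rose at 6 h, 21 rose at 24 h (21 of 107) and 34 after 5 doses (34 of 234). Of the 46 that fell, 6 fell at 24 h (6 of 62) and 15 after 5 doses (15 of 205). Cyp3a23-3a1 differed by 1.94 at 6 h, 2.18 at 24 h and 1.34 after 5 doses, and Cyp2b2 by 2.08, 2.63 and 3.17 in the same order. Cyp3a18 differed by 1.80, 2.59 and 3.67, and Slco1a4 by 1.18, 1.91 and 2.03. Mdm2 differed by 1.78, 1.47 and 2.56, and Alas1 by 1.48, 1.46 and 1.82. All these passed at each time, while the change between 6 h and 24 h passed for none of them (adjusted p = 0.34 to 1.0). Of 15 phase 1 genes, 4 rose at 6 h, 9 at 24 h and 9 after 5 doses, and of 17 NRF2 targets 5, 7 and 13.

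Some genes that did not pass at 6 h passed later. Cyp3a2 rose by 1.41 at 24 h (adjusted p = 0.005) and by 2.20 after 5 doses (6.2e-07). Por rose by 1.11 at 24 h (adjusted p = 0.0033) and by 2.16 after 5 doses (3.7e-10). Abcc3 rose by 2.37 after 5 doses (adjusted p = 4.5e-11), Gsta3 by 2.69 (5.7e-09), and Sds fell by 4.72 on the log2 scale (0.00023). C1r, Serpina3n and Il6r had differences of -0.24, -0.22 and -0.32 at 24 h and of 0.13, 0.12 and -0.14 after 5 doses, none of which passed (adjusted p = 0.38 to 0.84). Lbp was at 0.01 at 24 h (adjusted p = 1.0) and rose by 0.93 after 5 doses (adjusted p = 0.0085), opposite to its fall at 6 h. Slc22a18, named after its values were seen, fell by 0.34 on the log2 scale at 6 h (adjusted p = 0.017) and rose by 0.33 at 24 h (0.017) and by 0.66 after 5 doses.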

How the data were processed

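Liver RNA of 90 rats was measured on one-colour arrays of 8799 probe sets, and 8740 were tested after 59 controls were left out. The authors deposited linear intensity values, some of them negative, and how these were scanned and summarised is not given in the sources used here. The array of vehicle male rat 1003 had its values displaced against the probe sets in 42.86% of windows checked (0 on the others) and was left out. On the remaining 89 arrays values under 0 were first raised to 0, the arrays were then quantile normalised, and log2(value + 16) was used. Groups, named from rat numbers and labels, were fitted as means of 18 groups with limma 3.58.1 in R 4.3.3 (lmFit, eBayes, two-sided, 71 residual degrees of freedom), with Benjamini-Hochberg adjustment across the 8740 probe sets. The fit was tested on simulated data. GEO's platform annotation gave 1 symbol to 7018 probe sets, several to 308 and none to 1473.

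Named genes were preset key genes, up to 3 of the largest called changes per list, the 10 largest rises and falls, and 5 of each in the other comparisons. Genes outside this rule, among them Ephx1, Sult1b1, Psmd4, C9, C1s, C4bpa, C4bpb and Mbl2, complete short counts and were chosen after their values were seen. Members and lists were chosen with earlier results of these data known. Alternatives were other pseudocounts (1, 64), median scaling, trend and robust moderation, leaving out the dimmest 33.3% of probe sets, rat 1003 put back, a fit of only the groups compared, a gene's probe sets averaged, a replicate block and each array left out. Rats are separate animals. The p-values and SEs rest on 1 spread between rats per probe set, estimated over all 18 groups and 89 arrays. They do not measure the spread of only the groups compared, which can be wider or narrower. Of 64 named genes, 55 had a RefSeq promoter window. Figures were made in matplotlib 3.10.9 under Python 3.11.15, from tables handled with pandas 2.3.3 and numpy 2.4.6.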

Additional observations from a re-analysis of the deposited data

Results flagged for a closer look

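In 10 of 104 sets of 5 rats checked, 1 rat lay far from the other 4 by Dixon's criterion, which chance alone meets in about 1 in 20. Among PCN females at 6 h these were rat 5502 for C1r (10.90), rat 5501 for Ccnd1 (8.80), rat 5505 for Pc (8.50), rat 5504 for Por (10.51) and rat 5503 for Tat (10.94). Among vehicle females at 6 h they were rat 1503 for Cyp3a2 (4.61), Igfbp1 (8.48) and Pdk4 (5.98), rat 1504 for Inf2 (5.07) and rat 1502 for Pakap (5.90). For Cyp3a2, Igfbp1, Pdk4 and Inf2 the other 4 rats lay at 4.00 to 4.24, at or beside the floor. There the rate of 1 in 20 need not hold.

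The effect of PCN differed between 24 h and 6 h, by the test of the difference itself, for Nptn (3.33), B3gat1 (1.92), Stmn1 (1.53), Cyp2a2 (1.37) and Hsd17b3 (1.15), and in the other direction for Inf2 (-1.95), Max (-1.42), Actg1 (-1.18), Rabggtb (-0.98) and Ddx21 (-0.76). The values of B3gat1, Inf2 and Max include a group with every rat at the floor and do not measure a size. It differed between females and males at 6 h for the probe sets X62086mRNA_s_at (3.52), J03914cds_s_at of Gstm2 (1.28), rc_AA799890_at (1.22) and U91561_g_at (-0.79), none of which passed in a fit of only the groups compared.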

How the results depend on the processing

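PCN minus vehicle gave 87 probe sets in place of 196 when only the groups compared were fitted, PCN minus phenobarbital gave 206 in place of 607, and the sex difference 1 in place of 4, which was none of those 4. That fit estimates the spread from fewer arrays. With a replicate block the sex difference gave 8, while PCN minus vehicle gave 234, PCN minus phenobarbital 684 and the change with time 36 in place of 24. Rats in the same place within their groups share only that place in the labels. Their deviations correlated at 0.23, -0.022, 0.293, 0.211 and 0.002 for places 1 to 5, above those of other places in 3 of the 5, and since not every place passed 0.1 the rats were not treated as pairs. With each array left out, the counts were 150 to 215 for PCN minus vehicle, 471 to 734 for PCN minus phenobarbital, 3 to 9 for the sex difference and 10 to 49 for the change with time. For the sex difference, J03914cds_s_at also lost its call under median scaling (adjusted p = 0.15), a pseudocount of 64 (0.056), rat 1003 put back (0.27) and with any of 8 arrays left out (0.052 to 0.20), and rc_AA799890_at with rat 1003 put back (0.17). The sex difference gave 9, 8, 7 and 8 without vehicle male 1001, vehicle male 1002, PCN male 5004 and PCN female 5503. The change with time gave 10 without vehicle rat 1509, 15 without each of vehicle rats 1506 and 1510 and PCN rat 5505, and 49 without PCN rat 5508.

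Of the single-gene values of PCN minus vehicle under all alternatives, 880 kept direction and side of the threshold, 100 lost and 4 gained a call, and 2 changed sign, Sult2a1 under median scaling (-0.044) and Tat without vehicle rat 1504 (0.054, in a range of -0.15 to 0.054 with each array left out), neither of which had passed. With rat 1003 put back, 143 probe sets passed, and C1r (adjusted p = 0.30), Gstm1 (0.41), Il6r (0.47), Psmc2 (0.45) and Gstm2 (0.067) did not. Nor did Ccnd1 (0.15), Cish (0.27), Lbp (0.13), Psma5 (0.098), Rab4b (0.098), Rxrg (0.41) and Tsc22d1 (0.36). In the change with time Hsd17b3 lost its call there (0.066). In the fit of only the groups compared, Cyp3a18 (0.099), Slco1a4 (0.057), Gsr (0.069), Hao2 (0.079), Ugt2b1 (0.069), Gstm1 (0.057), Cdo1 (0.068), Inf2 (0.26), C8h11orf54 (0.24), Actg1, Ccnd1, Cish, Lbp, Max, Me1, Oat, Pc, Pdk2, Psma5, Rab4b, Rxrg and Tsc22d1 (the last 13 at 0.069 to 0.36) did not pass. In the same fit, Serpina7 (0.092) also lost its call in PCN minus phenobarbital, and Actg1, B3gat1, Hsd17b3, Inf2, Max and Stmn1 (0.10 to 0.23) that of the change with time. Cyp3a23-3a1, Cyp2b2, Alas1, Gclc, Tkt, Mdm2, Rhob, Pakap, Serpina3n and Mfsd6 passed under every alternative run. Of the called probe sets, 20 had a mean level under 5, near the floor. Read from the mean of a gene's sets, 2 cell cycle genes rose in place of 1 and 0 nuclear receptors fell in place of 1, while acute phase falls were 6 in place of 4, complement falls 6 in place of 5 and NRF2 rises 6 in place of 5, and 1 hepatocyte marker, 1 endothelial marker, 1 coagulation, 1 thyroid hormone and 1 immediate early gene fell in place of 0.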
